A study of Mus musculus with 12 samples.

Results

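The genes described here are 29 genes of cholesterol synthesis and transport, chosen by symbol from the count table of the striatum of TAAR5-KO and wild-type (WT) mice. All 29 were found, each as 1 of the 57132 features of the table, and all 29 passed the filter on low counts. They comprise 17 enzymes of synthesis, 4 regulators (Srebf2, Scap, Insig1 and Nr1h2), 3 carriers of sterol within the cell (Stard4, Npc1 and Npc2), 3 genes of efflux (Apoe, Abca1 and Abcg1) and 2 of turnover (Cyp46a1 and Soat1). The study compared 6 TAAR5-KO and 6 WT littermates on the C57Bl/6 background at an age of 10 months. TAAR5 is trace amine-associated receptor 5, and how its gene was inactivated is not described in the sources used here. By the study's methods each group held 3 males and 3 females, but no column of the table is tied to an animal or to a sex. The tissue was what remained of a coronal forebrain slice once the cortex had been cut away, so each library mixes all cell types of the striatum and its borders.

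Cholesterol does not cross from blood into the adult brain in useful amounts, so brain cells make their own. The mevalonate pathway turns acetyl-CoA units into isoprenes and then squalene, which is closed to lanosterol and trimmed to cholesterol in the endoplasmic reticulum. Its enzymes are under the transcription factor SREBP2, the product of Srebf2, which SCAP carries to the Golgi when sterol is low and which INSIG1 holds back when sterol is high. Astrocytes export cholesterol on apolipoprotein E through the transporters ABCA1 and ABCG1, oligodendrocytes use it for myelin, and neurons remove it by 24-hydroxylation through CYP46A1.

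The promoters of the synthesis enzymes are shown because SREBP2 and its partners are known to act there on the pathway as a unit. RefSeq promoter windows (assembly GRCm38.p6, 300 bases, of which 250 lie before the start) were given for 23 of the 29 genes and for 14 of the 17 enzymes. The SREBP element, searched as TCACCCCAC on both strands, was in 1 of these 23 genes, Hmgcs1, and in 0.614% of the 27025 genes with a window. The looser TCACNCCAC, which includes the first, added no other of the 29 genes and was in 1.44% of all genes. CCAAT, the letters bound by NF-Y, a partner of SREBP, was on either strand in 19 of the 23 genes (82.6%) and in 14 of the 14 enzymes, against 41.1% of all genes with a window. Counted by window it was in 19 of 29 (65.5%) against 37.4% of all windows. These are matches of letters, not measured binding sites. The 250 bases before the start of Hmgcs1 (chr13:119690101-119690350, plus strand, GRCm38.p6) follow, with CCAAT, read here as ATTGG on the other strand, and the SREBP element in capitals.

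Hmgcs1: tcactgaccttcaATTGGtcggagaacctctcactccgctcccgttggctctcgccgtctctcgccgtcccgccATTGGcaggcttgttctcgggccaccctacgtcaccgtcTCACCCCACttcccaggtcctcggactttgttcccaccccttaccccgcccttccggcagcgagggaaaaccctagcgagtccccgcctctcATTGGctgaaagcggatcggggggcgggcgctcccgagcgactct

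Around 1 CCAAT match each, 35 bases are shown for 4 later enzymes, to let the shared letters be seen side by side: Mvd (chr8:122443463-122443497, minus strand), Idi1 (chr13:8885546-8885580, plus strand), Cyp51 (chr5:4104707-4104741, minus strand) and Msmo1 (chr8:64733655-64733689, minus strand). Capitals mark CCAAT or its reverse complement.
Mvd: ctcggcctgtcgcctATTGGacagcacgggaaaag
Idi1: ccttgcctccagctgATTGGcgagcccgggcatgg
Cyp51: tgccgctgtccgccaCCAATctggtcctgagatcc
Msmo1: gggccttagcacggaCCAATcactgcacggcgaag

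Apoe, the gene of the 29 with the smallest p below, had 3 windows, and none held CCAAT, the SREBP element or a direct repeat for the liver X receptor (LXR), a motif found in 0 of the 23 genes and in 0.0148% of all genes. The window that lies farthest upstream is given without capitals (chr7:19699189-19699438, minus strand, GRCm38.p6).
Apoe: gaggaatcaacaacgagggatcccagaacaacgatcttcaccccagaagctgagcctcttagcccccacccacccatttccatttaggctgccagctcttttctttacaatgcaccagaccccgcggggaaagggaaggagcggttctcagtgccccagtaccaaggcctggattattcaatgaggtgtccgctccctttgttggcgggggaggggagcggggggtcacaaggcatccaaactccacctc

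Several facts of the libraries bear on all values. Taar5 itself had between 1 and 6 counts in the KO-labelled libraries and between 0 and 2 in the WT-labelled ones, which goes against the labels, so libraries are named by label, KO-labelled or WT-labelled, and every direction follows the labels. Total counts ran from 11269915 to 34824450, of which ribosomal RNA took 64.2% to 87.5%, and the 29 genes together received from 2092 to 12251 counts per library. Counts were scaled by the trimmed mean of M-values (TMM) and are given as CPM, counts relative to the scaled library size. A count of 0 allows up to 3 counts, or between 0.0678 and 0.361 CPM, an allowance for counting error only. All 10 markers of striatal spiny neurons were detected in every library, with a summed level of 334.6 to 432.7 CPM in KO-labelled libraries and 196.5 to 371.6 CPM in the WT-labelled ones. Summed levels of the microglia list (37.9 to 52.7 against 54.2 to 64.9 CPM) and of the oligodendrocyte precursor list (10.1 to 14.2 against 12.6 to 15.3 CPM) were lower in KO-labelled libraries (two-sided exact permutation test, p = 0.00216 and 0.00433, both 0.0173 when adjusted over 8 lists). The choroid plexus list, 6 markers of a tissue that borders the striatum, set libraries apart within each label. Its summed level was 2.76 to 8.35 CPM in NK1, NK2, NK3 and NK6 but 182.7 CPM in NK5 and 475.2 CPM in NK4, all KO-labelled. It was 3.62 CPM in NK12 and 113.7 to 288.3 CPM in the other 5 WT-labelled libraries. The medians were thus 6.04 and 178.7 CPM. The exact permutation test compared the group means and not the medians (log2 ratio of means −0.57, p = 0.574). The cortical pyramidal neuron list split the KO-labelled libraries the other way. It had 27.8 CPM in NK4, 36.5 CPM in NK5 and 55.4 to 103 CPM in the others. In WT-labelled libraries it had 37.5 to 110 CPM, and no fit took it as a covariate. Results of Apoe, Stard4, Npc2, Soat1, Scd1 and Fads2 are therefore also given with the choroid plexus level as a covariate. They are also given within the 7 libraries where that level was at least 100 CPM (2 KO-labelled, 5 WT-labelled). Both fits were chosen after the data were seen. Other genes separated NK4 and NK5 as well, among them Abca1 and Clu. No separate log2 fold change from these fits is printed for them.

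The enzymes differed widely in level, which is compared here only as CPM per kilobase of merged exons. Hmgcs1, which makes HMG-CoA at the entry of the pathway, was the highest at 6.54 CPM per kilobase in WT-labelled libraries and 6.71 in the KO-labelled ones. The next were Sc5d, the late sterol C5-desaturase (2.46), Cyp51, the lanosterol demethylase (1.87), Fdft1, squalene synthase (1.81), and Msmo1, the C4-methyl oxidase (1.54 CPM per kilobase in WT-labelled libraries). The kinases and the decarboxylase that follow mevalonate stood far lower, with 0.270 for Mvk, 0.737 for Pmvk and 0.361 CPM per kilobase for Mvd. Tm7sf2, one of the sterol C14-reductases, was the lowest at 0.141 CPM per kilobase, so that the highest and the lowest enzyme differed 46.2-fold in WT-labelled libraries. Among the other genes, Apoe stood at 41.4 CPM per kilobase in WT-labelled libraries, Cyp46a1 at 3.02, Srebf2 at 2.68, Insig1 at 1.75 and Abca1 at 1.06.

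**Figure D1:**
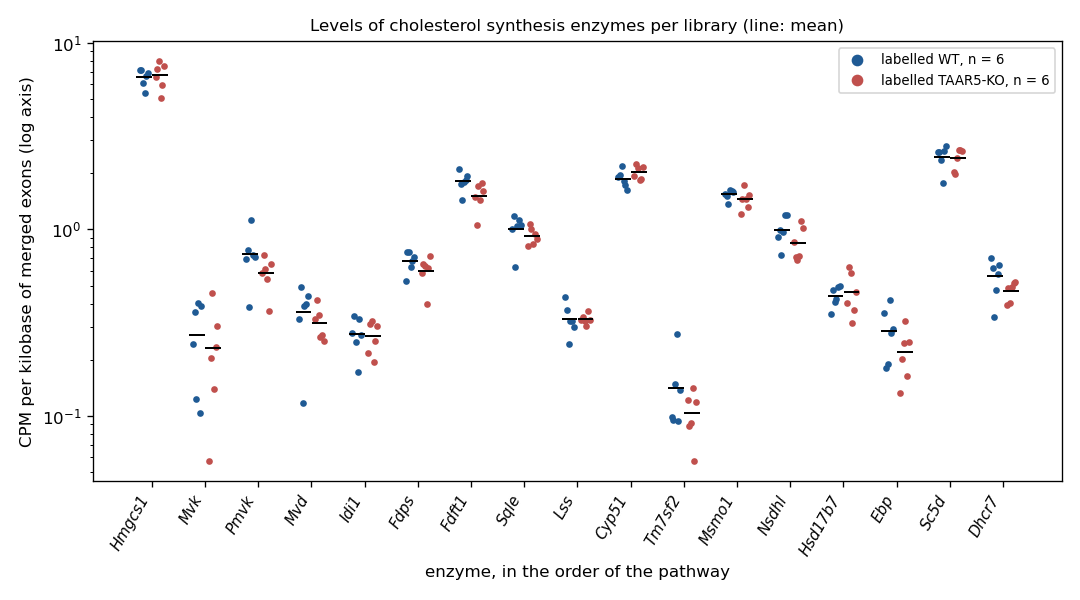
Level of the 17 synthesis enzymes in the order of the pathway, in CPM per kilobase of merged exons on a log axis; each point is a library (6 labelled WT, 6 labelled TAAR5-KO) and lines are group means. Hmgcs1 is the highest (6.54 in WT-labelled libraries) and Tm7sf2 the lowest (0.141), and the points of both labels overlap at every enzyme.

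None of the 17 synthesis enzymes passed the test between the labels. Their adjusted p ran above the threshold of 0.1 in edgeR's likelihood ratio test, which was adjusted over all 13902 features tested. The quasi-likelihood test of edgeR and DESeq2 also called 0 of the 17, but DESeq2 gave no adjusted p for 7 of them. At an unadjusted p under 0.05 there were 2 of the 17 by the likelihood ratio test (11.9% of all features), 2 by the quasi-likelihood test (12% of all features) and 1 by DESeq2 (9.73% of all features), shares near or below those of all features. Of the 17 enzymes 14 had a log2 fold change below 0 and 3 (Hmgcs1, Cyp51 and Hsd17b7) above 0, with a median of −0.16, against a median of −0.0059 and 51.1% below 0 over all features tested. The summed level of the 17 was 89.5 ± 7.92 CPM (SD, n = 6) in KO-labelled libraries and 92.5 ± 7.10 CPM (SD, n = 6) in the WT-labelled ones, a difference smaller than either SD. Hmgcs1 alone gave 30.8 and 30.0 CPM of these sums, so enzymes at low levels weigh little in them.

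Hmgcs1 had 23.2 to 36.6 CPM (median 31.8) in KO-labelled libraries and 24.7 to 32.8 CPM (median 31.0) in WT-labelled libraries. Its log2 fold change of 0.029 (SE 0.11) had a 95% interval from −0.19 to 0.25. Fdft1, which joins farnesyl diphosphates into squalene, had the smallest p of the enzymes. It ran from 4.37 to 7.34 CPM (median 6.39) in KO-labelled libraries and from 5.91 to 8.68 CPM (median 7.46) in the WT-labelled ones. NK2 was the lowest of the first group and the groups overlapped. On the log2 scale the difference was −0.26 (SE 0.12, adjusted p = 0.349), with a 95% interval from −0.50 to −0.023. Dhcr7, which makes cholesterol from its last precursor in the Kandutsch–Russell branch, had 2.30 to 3.02 CPM in KO-labelled libraries and 1.97 to 4.07 CPM in the WT-labelled ones. All 6 KO-labelled values lay inside the range of the WT label, and on the log2 scale the difference was −0.31 (SE 0.15, adjusted p = 0.359).

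Mvd, the diphosphomevalonate decarboxylase, had the lowest log2 fold change of all 29 genes, −0.39 (SE 0.25, adjusted p = 0.563). It had 0.469 to 0.781 CPM (median 0.558) in KO-labelled libraries and 0.219 to 0.919 CPM (median 0.731) in the WT-labelled ones, with NK9 the lowest of the 12. That lowest value rested on 2 counts, and no library had more than 36. Few counts also stood behind Mvk (2 to 46 counts per library), Tm7sf2 (5 to 27), Ebp (4 to 30), Idi1 (5 to 42) and Pmvk (6 to 54). For Mvk, mevalonate kinase, the 95% interval of the log2 fold change reached from −0.96 to 0.52, the widest of the 29 genes. Changes inside it could not be told from 0. Intervals were narrower for Msmo1 (−0.29 to 0.089), Cyp51 (−0.059 to 0.33), Sc5d (−0.26 to 0.17) and Sqle, squalene epoxidase and a rate-controlling step (−0.40 to 0.073). The log2 fold changes of the remaining enzymes covered the same range, for Lss, lanosterol synthase (−0.034, SE 0.14), Fdps, farnesyl diphosphate synthase (−0.14, SE 0.15), the C4-demethylation enzymes Nsdhl (−0.23, SE 0.16) and Hsd17b7 (0.020, SE 0.17), the sterol isomerase Ebp (−0.35, SE 0.27), Idi1 (−0.084, SE 0.20), Pmvk (−0.34, SE 0.21) and Tm7sf2 (−0.29, SE 0.30).

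**Figure D2:**
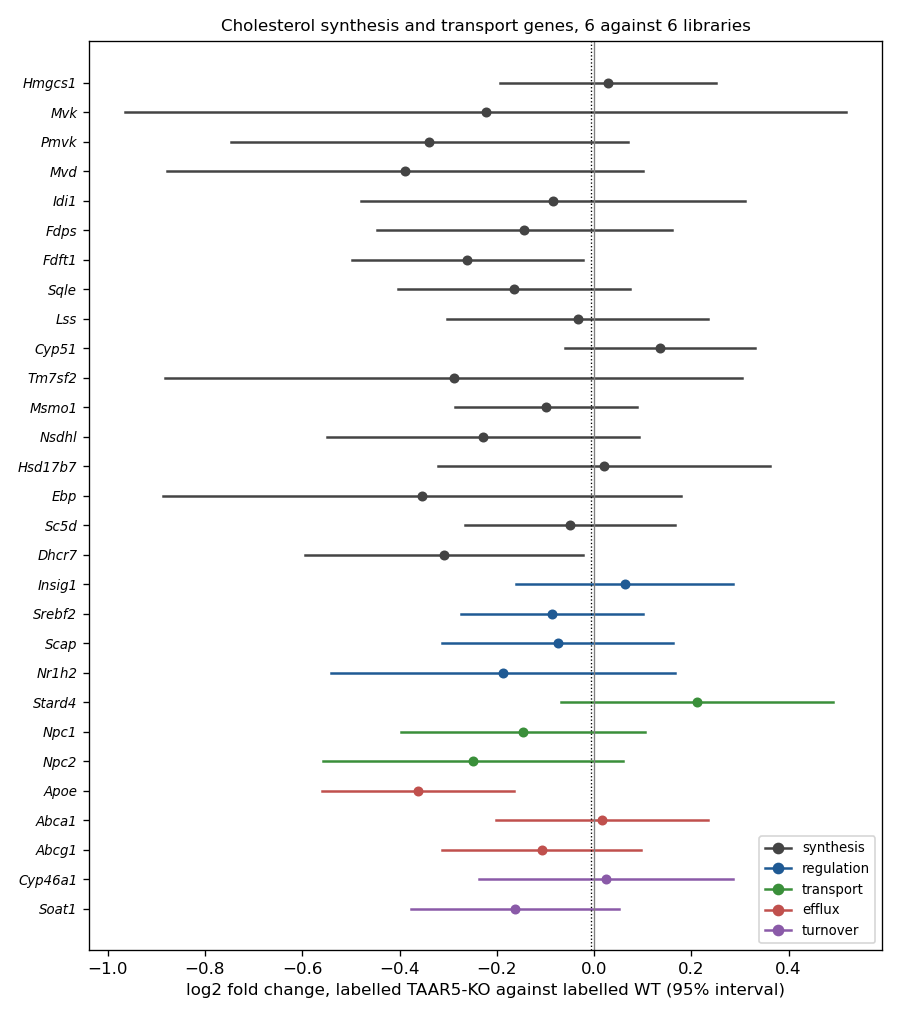
Log2 fold change of the 29 genes between KO-labelled and WT-labelled libraries (n = 6 each) with 95% intervals, coloured by role; the solid line is 0 and the dotted line the median of all features tested (−0.0059). Apoe is the gene whose interval lies farthest from 0 (−0.56 to −0.16), and most synthesis enzymes have intervals that span 0.

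The enzymes also differed from library to library. NK9, labelled WT, had the lowest value of its group for 8 of the 17 enzymes, and NK4, labelled TAAR5-KO, for 6. Relative to the mean of the 12 libraries, the median enzyme stood between −0.21 (NK4) and 0.043 (NK3) on the log2 scale in KO-labelled libraries. It stood between 0.054 (NK7) and 0.15 (NK12) in 5 of the WT-labelled libraries and at −0.21 in NK9. Apart from NK9 every WT-labelled median was thus above every KO-labelled one, and no test was run on it because it is a summary over the chosen genes. The summed level of the 17 enzymes ran from 79.2 to 99.5 CPM in KO-labelled libraries and from 82.1 to 98.4 CPM in the WT-labelled ones, so the ranges overlapped almost in full. NK4 was also the library with the highest summed choroid plexus list, and with that level as a covariate 0 of the 17 enzymes were called. The median log2 fold change of the 17, −0.16 in the main fit, was −0.20 with that covariate and −0.25 within the 7 libraries at or above 100 CPM. It thus moved away from 0, while the median of all features was −0.010 and −0.0023. Hmgcs1 had −0.10 with the covariate and −0.25 within the 7 libraries.

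**Figure D3:**
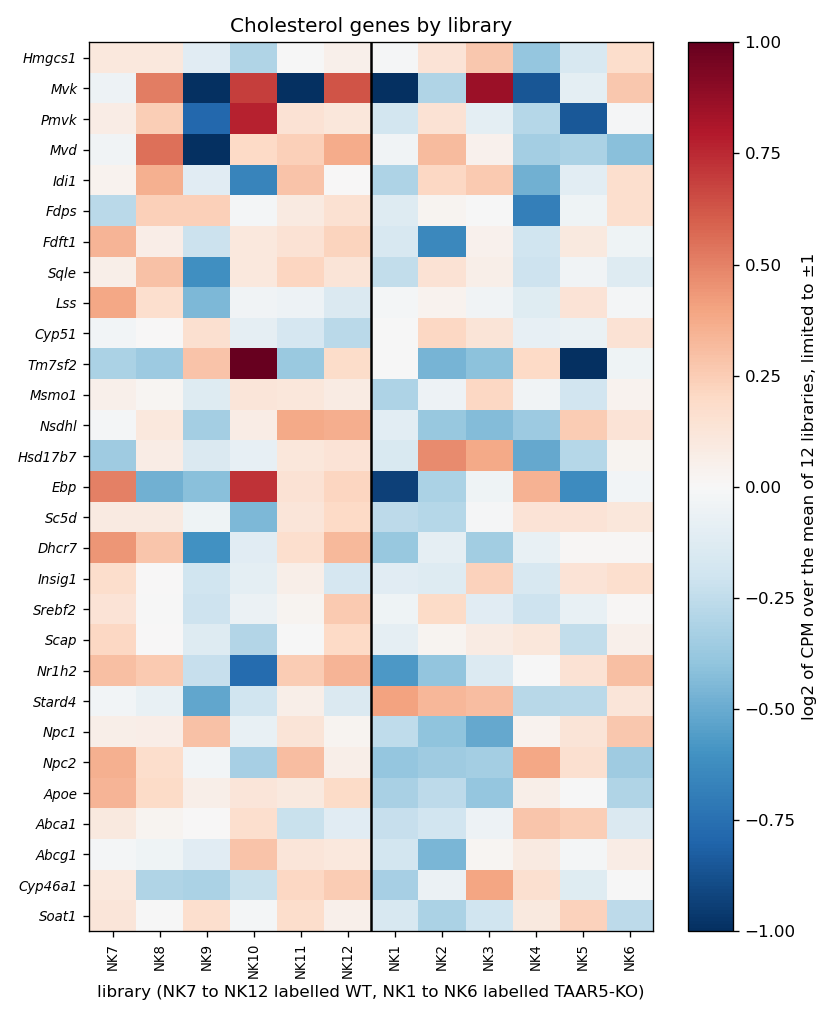
Each of the 29 genes in each of the 12 libraries as log2 of CPM over the gene's mean, limited to ±1; columns 1 to 6 are labelled WT and the rest TAAR5-KO. Columns NK9 and NK4 are bluer over the synthesis enzymes (median −0.21 in both), and the row of Apoe is red on the WT side and blue in 4 of the 6 KO-labelled columns.

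Of the 4 regulators none passed, with 0 called by each of the 3 tests and 0 at an unadjusted p under 0.05. DESeq2 gave no adjusted p for Nr1h2. Srebf2 stood at 18.3 ± 1.76 CPM (SD, n = 6) in KO-labelled libraries and 19.2 ± 2.13 CPM (SD, n = 6) in the WT-labelled ones, and its log2 fold change of −0.087 had a 95% interval from −0.27 to 0.10. Insig1, itself a target of SREBP2, had 5.66 ± 0.674 against 5.42 ± 0.552 CPM (SD, n = 6 each), with an interval from −0.16 to 0.29. For Scap the interval ran from −0.31 to 0.16. Nr1h2, the gene of LXR beta, which turns on efflux genes when oxysterols accumulate, had the smallest p of the 4. Its values were 1.38 to 2.53 CPM (median 1.95) in KO-labelled libraries and 1.2 to 2.60 CPM (median 2.46) in the WT-labelled ones, with full overlap. On the log2 scale the difference was −0.19 (SE 0.18, likelihood ratio test, adjusted p = 0.737).

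None of the 3 carriers within the cell passed the test. Stard4, which moves cholesterol between membranes and is a target of SREBP2, had the highest log2 fold change of the 29 genes, 0.21 (SE 0.14, adjusted p = 0.587). It had 2.97 to 4.75 CPM (median 4.18) in KO-labelled libraries and 2.52 to 3.74 CPM (median 3.34) in the WT-labelled ones. In NK1, NK2, NK3 and NK6 it exceeded every WT-labelled library, and in NK4 and NK5, the KO-labelled libraries with choroid plexus markers above 100 CPM, it did not. Its log2 fold change was 0.098 with the choroid plexus level as a covariate and −0.18 within the 7 libraries at or above 100 CPM. Npc2, the soluble protein that hands cholesterol to NPC1 in the lysosome, had 2.91 to 4.96 CPM (median 2.99) in KO-labelled libraries and 3.01 to 4.86 CPM (median 4.13) in the WT-labelled ones. NK4 and NK5, again the KO-labelled libraries with choroid plexus markers, were high and the other 4 KO-labelled libraries stood near 3 CPM. On the log2 scale the difference was −0.25 (SE 0.16, adjusted p = 0.561), and for Npc1, the lysosomal membrane protein that receives it, −0.15 (SE 0.13). For Npc2 it was −0.16 with the choroid plexus level as a covariate and 0.084 within the 7 libraries.

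Neither gene of turnover passed the test. Cyp46a1, the neuronal 24-hydroxylase, had 10.3 ± 1.82 CPM (SD, n = 6) in KO-labelled libraries and 9.92 ± 1.80 CPM (SD, n = 6) in the WT-labelled ones, with a 95% interval of the log2 fold change from −0.24 to 0.29. Soat1, which esterifies cholesterol for storage, ran from 6.87 to 10.0 CPM (median 7.56) in KO-labelled libraries and from 8.43 to 9.65 CPM (median 9.07) in the WT-labelled ones. NK1, NK2, NK3 and NK6 were below every WT-labelled library and NK5 was above all of them. On the log2 scale the difference was −0.16 (SE 0.11, adjusted p = 0.585), and NK4 and NK5 stood above the other KO-labelled libraries here too. It was −0.096 with the choroid plexus level as a covariate and 0.080 within the 7 libraries.

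Apoe was the 1 gene of the 29 that passed the threshold of the likelihood ratio test, and it was lower in KO-labelled libraries. It encodes apolipoprotein E, the main lipid carrier that astrocytes and microglia release in the brain, and lies on chromosome 7 of GRCm39 from 19430034 to 19433113 (ENSMUSG00000002985.17, minus strand, protein coding). In KO-labelled libraries it had, from the lowest, 60.1 CPM in NK3, 62.8 in NK1, 64.0 in NK6, 65.7 in NK2, 78.2 in NK5 and 82.1 in NK4. In WT-labelled libraries it had 82.0 CPM in NK9, 84.2 in NK11, 85.6 in NK10, 89.6 in NK12, 89.9 in NK8 and 99.2 in NK7. The groups thus overlapped only through NK4, which was above NK9 by less than 0.1 CPM, and NK4 and NK5 stood apart from the other 4 KO-labelled libraries.

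The same split was in the choroid plexus list and, in the opposite direction, in the cortical pyramidal neuron list. The 4 KO-labelled libraries with Apoe of 60.1 to 65.7 CPM had 2.76 to 8.35 CPM of choroid plexus markers, and the 2 with Apoe of 78.2 and 82.1 CPM had 182.7 and 475.2 CPM. Among WT-labelled libraries, NK12, without such markers, had 89.6 CPM of Apoe, inside the range of the other 5 (82.0 to 99.2 CPM). With the choroid plexus level as a covariate the log2 fold change of Apoe was −0.29 (SE 0.093, adjusted p = 0.0796 from edgeR's likelihood ratio test). Within the 7 libraries at or above 100 CPM it was −0.14 (SE 0.12, adjusted p = 0.849), where 2 KO-labelled libraries met 5 WT-labelled ones and Apoe was not called. Among the 5 libraries below 100 CPM a single one was WT-labelled, so no fit was made there.

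Apoe fell by 0.36 on the log2 scale (SE 0.10, 95% interval from −0.56 to −0.16, adjusted p = 0.0452 from the likelihood ratio test), from 88.4 ± 6.12 to 68.8 ± 9.05 CPM (SD, n = 6 each). A two-sided exact permutation test on its log2 CPM gave p = 0.00433, where 0.00216 is the smallest value that 6 against 6 libraries allow. One called gene of 29 compares with 1.65% of all 13902 features in either direction and 0.691% lower. DESeq2 also called Apoe alone among the 29, against 1.27% of all features. DESeq2 gave no adjusted p for 8 of the 29 and for 7009 of the 13902 features. Its share among features with an adjusted p is therefore higher than 1.27%. The quasi-likelihood test called 0 of the 29 (Apoe at adjusted p = 0.128) against 0.453% of all features. At an unadjusted p under 0.05 there were 3 of the 29 by the likelihood ratio test, against 11.9% of all features, 3 by the quasi-likelihood test, against 12%, and 2 by DESeq2, against 9.73%. No gene of the 29 had groups fully apart, against 1.01% of all features. The call was also lost when each library's trend on GC content was removed (log2 fold change −0.26, adjusted p = 0.286), without a filter (adjusted p = 0.243) and with library size as scaling (adjusted p = 0.700). It was lost when NK1 (adjusted p = 0.153), NK2 (0.137), NK3 (0.148), NK6 (0.114) or NK7 (0.162) was left out, and held without any 1 of the other 7 libraries.

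Markers of the cells that make apolipoprotein E had lower levels beside it. Of the 10 astrocyte markers, 10 had a log2 fold change below 0 (median −0.33) and 2 were called by the likelihood ratio test, Gja1 and S100b, against 1.65% of all features, with 0 by the quasi-likelihood test. Their summed level was 1117 to 1311 CPM in KO-labelled libraries and 1222 to 1430 CPM in the WT-labelled ones (exact permutation p = 0.0498, adjusted over 8 lists 0.0796). Slc1a2, a glutamate transporter, made up 71.7% to 80.8% of that sum and had a log2 fold change of −0.044, so the sum largely follows 1 gene. The other 9 markers summed to 241.7 to 321.2 CPM in KO-labelled libraries and 325.0 to 366.7 CPM in WT-labelled libraries, without overlap, and are given as a description because they were separated after the values were seen. The 10 microglia markers were also all below 0 (median −0.36). Of these 10, 3 were called by the likelihood ratio test and 0 by the quasi-likelihood test, against 1.65% and 0.453% of all features. DESeq2 called 2 of the 10, against 1.27%, and gave no adjusted p for 4. No marker of either list was at 0 in any library. NK5 and NK4, with the highest Apoe of their label, also had the highest sums of the other 9 astrocyte markers (321.2 and 316.5 CPM) and of the microglia list (48.6 and 52.7 CPM) of that label. On the full list of 10 astrocyte markers the order was reversed. With Slc1a2 included, NK5 and NK4 had the lowest sums of that label (1153 and 1117 CPM). In bulk tissue fewer cells of a type and less RNA per cell cannot be told apart, and the part of the astrocyte and microglia markers in the Apoe result was not tested. For other cell types, the mature oligodendrocyte list had a summed level of 632.5 to 771.2 against 667.1 to 862.6 CPM (exact permutation p = 0.0281, adjusted 0.0563). Of its 12 markers 0 were called by the likelihood ratio and quasi-likelihood tests and 1, Mbp, by DESeq2. The endothelium (p = 0.680) and cortical pyramidal neuron lists (p = 0.864, exact permutation tests) did not pass, and the spiny neuron list had an adjusted p of 0.0563.

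**Figure D4:**
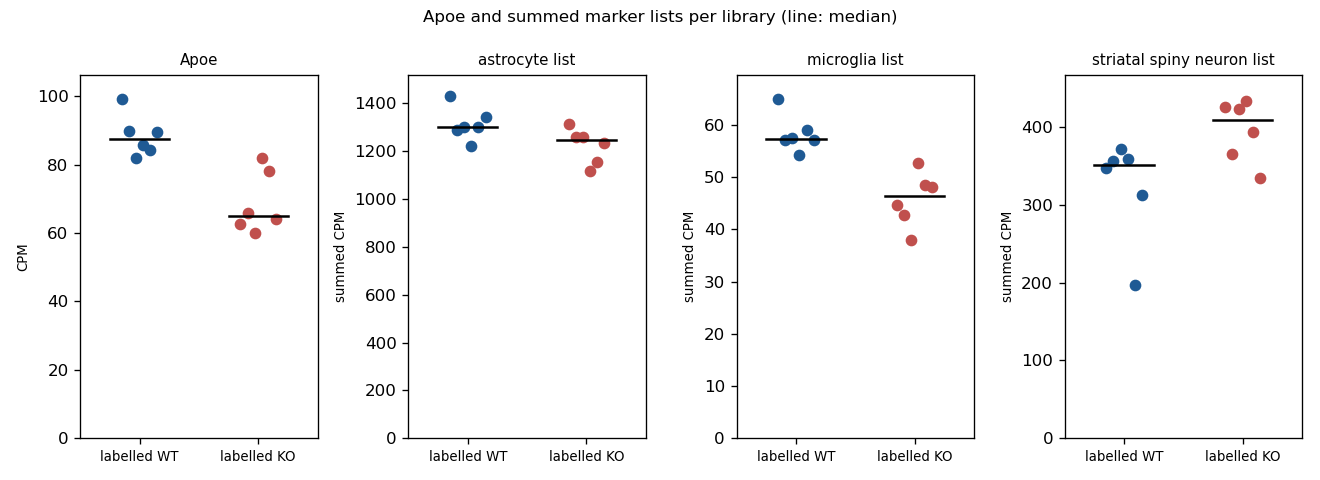
Apoe (CPM) and the summed CPM of the astrocyte, microglia and striatal spiny neuron lists in each library, with lines at the group medians and axes from 0. Apoe ranges from 60.1 to 82.1 in KO-labelled libraries and from 82.0 to 99.2 in the WT-labelled ones, and the microglia list does not overlap between the labels.

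Neither of the transporters that load lipid onto apolipoprotein E passed the test. Abca1 had 11.02 ± 1.76 CPM in KO-labelled libraries and 11.02 ± 1.06 CPM in the WT-labelled ones (SD, n = 6 each), and a log2 difference of 0.016 with a 95% interval from −0.20 to 0.23. Its equal means hide a split within the KO label. NK4 and NK5 had 13.4 and 13.1 CPM, above every WT-labelled library (at most 12.4 CPM). The other KO-labelled libraries had 9.42 to 10.6 CPM. Over the 13 alternatives other than leaving out a library, its log2 fold change ran from −0.40 to 0.25. Abcg1 had 8.38 ± 1.13 against 9.17 ± 0.943 CPM (SD, n = 6 each), and a log2 difference of −0.11 with an interval from −0.31 to 0.096. The intervals of both lay above the −0.36 of Apoe but overlapped the interval of Apoe itself (−0.56 to −0.16). The difference between the genes was not itself tested.

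Further genes of sterol and lipid metabolism were taken from 8 lists with 91 genes, of which 83 passed the filter. Called were 2 of the 83, where 1.65% of all features were called, both lower in KO-labelled libraries and both in the list of fatty acid genes under the related factor SREBP1 (2 of 11, with 10 of the 11 below 0 and a median log2 fold change of −0.18). The quasi-likelihood test called 1 of the 83, Scd1, against 0.453% of all features, and DESeq2 called 4, Scd1, Scd2, Fads2 and Clu, against 1.27%. DESeq2 gave no adjusted p for 23 of the 83. The counts are small, and no test of the lists against all features was made. The lists were chosen with earlier results of these data known.

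Scd1, the stearoyl-CoA desaturase that makes monounsaturated fatty acids, had 39.4 to 54.9 CPM (median 44.4) in KO-labelled libraries and 56.2 to 65.2 CPM (median 63.1) in the WT-labelled ones. Every KO-labelled library was below every WT-labelled library. It fell by 0.44 on the log2 scale (SE 0.098, adjusted p = 0.00369 by likelihood ratio and 0.0576 by quasi-likelihood) and stayed past the threshold whichever library was left out. With the choroid plexus level as a covariate its log2 fold change was −0.38 (adjusted p = 0.011), and within the 7 libraries at or above 100 CPM it was −0.24 (adjusted p = 0.657). Fads2, the delta-6 desaturase of polyunsaturated fatty acids, had 15.1 to 22.7 CPM (median 19.5) against 20.4 to 27.5 CPM (median 24.95), with overlap. It fell by 0.38 (SE 0.11, adjusted p = 0.0696), but was not past the threshold by the quasi-likelihood test (adjusted p = 0.161) and stayed past it only without NK4, NK5, NK8, NK9 or NK10. It missed the threshold with the choroid plexus covariate (−0.35, adjusted p = 0.104) and within the 7 libraries (−0.18, adjusted p = 0.827). The close relatives Scd2 (−0.28, SE 0.10, adjusted p = 0.182) and Fads1 (−0.37, SE 0.13, adjusted p = 0.179) did not pass the likelihood ratio test, nor did Fasn, fatty acid synthase (−0.13, SE 0.088), Acly (−0.037, SE 0.089) or Acaca (0.068, SE 0.10).

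In the 7 other lists 0 genes were called by the likelihood ratio test. The list of further sterol synthesis had 4 of 7 genes below 0 (median −0.026), led by Por, the electron donor of the P450 enzymes (−0.21, SE 0.12, adjusted p = 0.467). The prenyl branch, which uses farnesyl diphosphate for other products, had 6 of 14 below 0 (median 0.032), and in it Chm, an escort protein of Rab prenylation, had 18.7 to 21.8 CPM in KO-labelled libraries and 16.1 to 18.5 CPM in the WT-labelled ones without overlap (log2 fold change 0.21, SE 0.078, adjusted p = 0.185). Control of SREBP had 7 of 14 below 0 (median 0.023), with the smallest p for Nfyc (−0.27, SE 0.21, adjusted p = 0.636). Lipoprotein receptors and uptake had 4 of 8 below 0 (median −0.027), led by Lrpap1 (−0.13, SE 0.089, adjusted p = 0.606). Intracellular sterol transfer had 10 of 16 below 0 (median −0.065), with the smallest p for Osbpl8 (0.24, SE 0.11, adjusted p = 0.318). Oxysterol formation and ester turnover had 1 of 4 below 0 (median 0.027), and Cyp7b1, which 7-alpha-hydroxylates oxysterols, led it (0.31, SE 0.22, adjusted p = 0.603). Among lipoproteins and efflux, with 7 of 9 below 0 (median −0.14, range −0.42 to 0.37) and 2 at an unadjusted p under 0.05, of which 1 was above 0 and 1 below, Clu, the astrocyte apolipoprotein clusterin, had 67.4 to 107 CPM in KO-labelled libraries and 97.5 to 111 CPM in the WT-labelled ones. NK4 was as high as the WT-labelled libraries, NK5 came next, and all KO-labelled libraries but NK4 were below every WT-labelled one. Clu had a log2 fold change of −0.35 (SE 0.11) and missed the threshold of the likelihood ratio test (adjusted p = 0.115), while DESeq2 called it (adjusted p = 0.0514). The likelihood ratio test did not call Clu with the choroid plexus level as a covariate or within the 7 libraries at or above 100 CPM either.

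**Figure D5:**
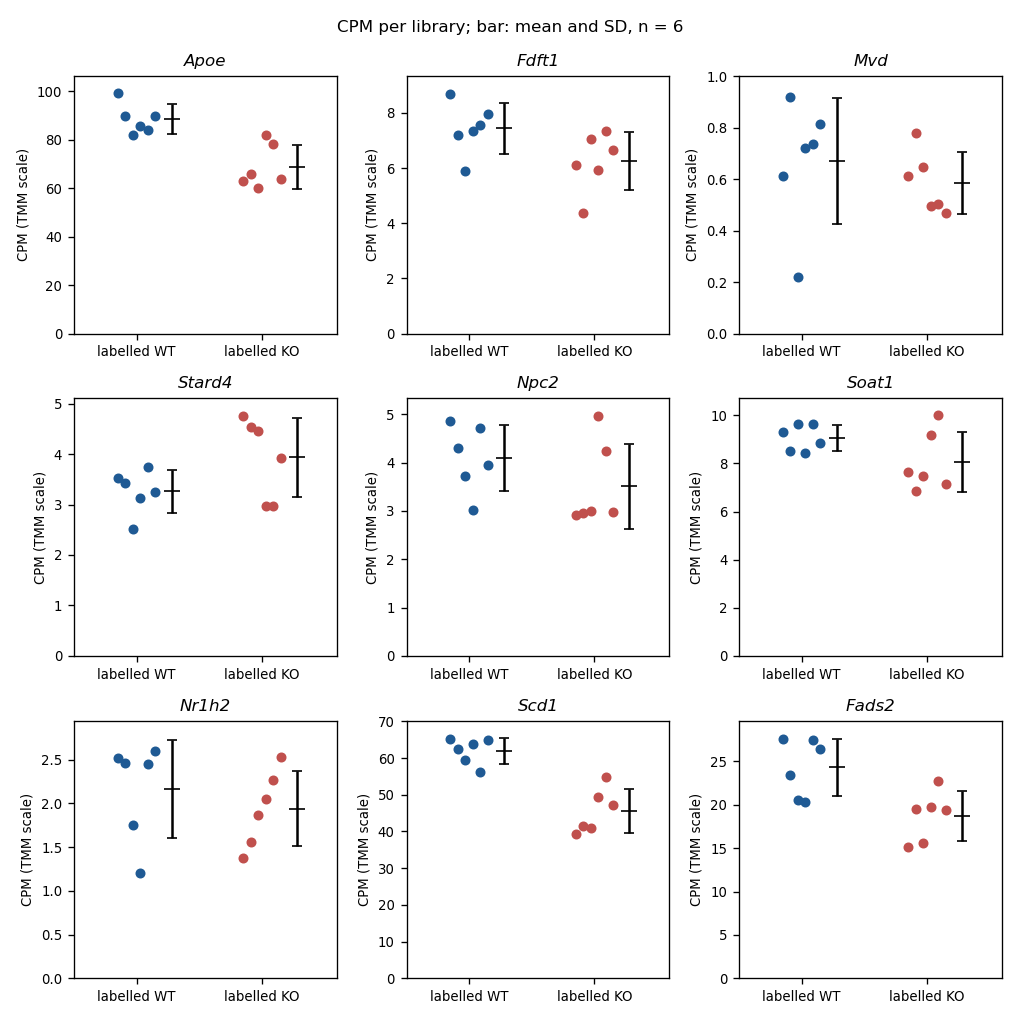
CPM per library of 7 of the 29 genes (Apoe, Fdft1, Mvd, Stard4, Npc2, Soat1, Nr1h2) and of Scd1 and Fads2, with the mean and SD of each group (n = 6) and axes from 0. Scd1 separates the labels fully (highest 54.9 against lowest 56.2), Apoe nearly so (82.1 against 82.0), and the rest overlap.

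Over all 29 genes, 22 had a log2 fold change below 0 and 7 above, with a median of −0.14 and a range from −0.39 to 0.21. The half-width of the 95% interval ran from 0.19 to 0.74, 19 of the 29 intervals lay within 0.5 of 0 on either side and all 29 within 1. Without TMM, scaled by library size alone, the median of all features moved to −0.49 and that of the 29 genes to −0.59, so the TMM scale sets the 0 point of these values. Some counts are uncertain because the strand setting of the counting is not given in the sources used here. In GENCODE M39 a gene on the opposite strand shares 24.8% of the exon bases of Fdft1 (Ctsb), 21.1% of Cyp51 (Akap9), 20.5% of Mvd (Gm51557) and 12.9% of Apoe (Gm71725). Processed copies that are at least 95% identical over at least 500 bases exist for Fdps, Fdft1 and Idi1, and they received at most 7 counts each over the 12 libraries.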

How the data were processed

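Directional single-end libraries were made from striatal total RNA after removal of ribosomal RNA. The authors trimmed reads with cutadapt 4.1, aligned them with STAR 2.7.11b to GRCm39 (GENCODE M35) and deposited whole-number counts per gene from featureCounts 2.0.6, without normalization, with the merged exon length of each gene, a further deposited value used to scale levels. The strand setting and the treatment of multi-mapping reads are not given in the sources used here. Columns name a label and a library (NK1 to NK12) but no animal, and the 12 other per-library columns were left aside. The 13902 of 57132 features that reached 0.5 CPM of total counts in 3 or more libraries were tested with glmFit and glmLRT of edgeR 4.0.16 (R 4.3.3) after TMM, with calls at an adjusted p (Benjamini–Hochberg) under 0.1. The test, the CPM cutoff and the adjusted p follow the study's methods, which name CPM but no TMM. TMM, and the filter on total counts, were chosen here, and the same cutoff on TMM-scaled sizes kept 13053 features with Apoe called. The study reports the same number of features, 13053, in its own test. The 229 features called here are more than the study reports, so its number of called genes was not reproduced. Whether the 229 include the genes that the study called was not examined. The SE and the 95% interval came from the same fit. The quasi-likelihood test and DESeq2 1.42.0 stood beside it. An adjusted p that DESeq2 left missing (8 of the 29 genes, 7009 of the 13902 features) stayed missing and counts as not called. The 30 pairs of libraries of one label differed by more than sampling noise (ratio of chi-square to its degrees of freedom 4.88 to 245) and count as separate replicates. Values with 1 number per library were compared over all 924 assignments of 6 and 6 libraries (exact, two-sided). The fit was also run on counts simulated from its own levels, scaled library sizes and dispersions. That simulation held no differences in tissue content between libraries, so it cannot show how well the fit holds for these data. Values in every library or their range are given for genes called, genes with the smallest p of each role or list, and the highest and lowest log2 fold change, and Dhcr7, Hmgcs1, Scd2, Fads1, Fasn, Acly, Acaca, Chm and the transporters were added after their values were seen. The 29 genes, the lists, the rules and the alternatives were chosen with earlier results of these data known. Some marker lists and some genes of the further lists appear only as counts.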

Additional observations from a re-analysis of the deposited data

Results flagged for a closer look

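Among 72 groups of 6 libraries (36 genes, 2 labels), 3 had a library whose gap to the nearest other exceeded Dixon's 95% critical value, and chance alone gives about 1 in 20 such groups. Sqle was lowest in NK9 labelled WT at 3.50 CPM, where the other 5 had 5.58 to 6.55 CPM. Tm7sf2 was highest in NK10 labelled WT at 1.2 CPM, where the other 5 had 0.415 to 0.656 CPM. Por was highest in NK10 labelled WT at 8.07 CPM, where the other 5 had 6.02 to 6.78 CPM.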

How the results depend on the processing

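No paired analysis was possible because the columns carry no animal number that both labels share. Of the 29 genes, 1 was called, and 0 were called by the quasi-likelihood test, with library size as the only scaling, without a filter, with the GC trend removed, or within the 7 libraries with a choroid plexus sum of at least 100 CPM (the last pair and the choroid plexus covariate were added after the data were seen). Leaving out 1 library gave 0 to 1. The 28 genes other than Apoe were past the threshold in 0 of the 25 alternatives. Of the 29 genes, 23 kept the sign of their log2 fold change in every fit that left out a library. Only 16 kept it in all of the remaining alternatives, library size as the only scaling set aside. The log2 fold change of Apoe ran from −0.42 to −0.32 over those 12 fits (adjusted p from 0.00598 to 0.162), and from −0.83 to −0.14 over the other 13 alternatives (adjusted p from 0.00739 to 0.849). Genes called among the 91 of the further lists (2) became 1 by the quasi-likelihood test, with ribosomal RNA features removed, without a filter, at an adjusted p under 0.05, with the GC trend removed and with the choroid plexus covariate, 0 with library size only and within the 7 libraries, 4 by DESeq2, and 1 to 5 when a library was left out: 1 without NK1, NK2, NK3, NK6, NK7, NK11 or NK12, 3 without NK5 or NK9 and 5 without NK4. All features called (229) became 63 by the quasi-likelihood test, 7 with library size only (0 higher and 7 lower, against 133 higher and 96 lower), 93 without a filter, 108 at an adjusted p under 0.05, 96 with the GC trend removed and 42 within the 7 libraries. Leaving out a library gave 85 (without NK11) to 414 (without NK4), with 102 without NK7, 114 without NK1 or NK2, 136 without NK12 and 137 without NK3. The cause of these changes was not tested.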
